A study of Mus musculus with 6 samples.

Results

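Rhobtb3, Arnt2, B4galnt2, Tenm4, Fam20a, Pcdh7 and Olfm5 are 7 genes of 21135 listed that were read at very low levels in wild-type DN3 thymocytes and at far higher levels in the mutant. They were picked by symbol from the genes with the steepest rise between the genotypes, so their own mutant and wild-type levels are given as a description and carry no test. The libraries were made from DN3 thymocytes of C57BL/6 mice, the stage without CD4 and CD8 at which the T-cell receptor beta locus is rearranged. There were 3 libraries from mice homozygous for mutations in GATA sites 1 and 2 of NMe, and 3 from mice with wild-type NMe. NMe is a distal enhancer of Myc that Notch acts on in T-cell precursors, and the labels name no Cre or other restriction of the mutation to a cell type. The labels used here give neither ages nor whether each library came from its own animal, so the spread that p-values rest on may be technical.

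The 7 genes do not form a pathway. Rhobtb3 encodes a protein with BTB domains that, in human cells, works with the small GTPase RAB9 in transport from endosomes to the Golgi and has been tied to breakdown of the hypoxia factor HIF1A. Arnt2 encodes a basic helix-loop-helix PAS protein that pairs with factors such as SIM1, NPAS4 and HIF1A, and is best known from hypothalamic neurons. B4galnt2 encodes the Golgi enzyme that adds N-acetylgalactosamine to sialylated galactose, making the Sda antigen, which is also known from mouse cytotoxic T cells. Fam20a encodes a secretory-pathway pseudokinase that activates the kinase FAM20C and is needed for tooth enamel. Tenm4 and Pcdh7 encode large cell-surface adhesion proteins studied mostly in the nervous system, a teneurin and a delta protocadherin. Olfm5 encodes a protein of the olfactomedin family.

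Each library held between 38.6 and 51.3 M reads in the listed genes. Myc had 5562, 4612 and 6165 normalised reads in the mutant libraries, against 18041, 19223 and 20196 in the wild-type libraries, which do not overlap. The DN3 marker Il2ra had 96837 to 110890 normalised reads in the mutant and 55810 to 61247 in the wild type. Cd4 (24.4 to 39.7 in the mutant, 53.0 to 85.4 in the wild type) and Cd8a (20.1 to 32.6 in the mutant, 32.9 to 55.4 in the wild type) were low in each library. A normalised read is a read count divided by a scale factor of its library, close to 1 read, and values of 3 reads or fewer are at the limit of detection. Wild type replicate 2 stood apart in haemoglobin and other erythroid genes, whose summed level was 8177 there and at most 61.5 in any other library. Over all genes, 18.8% of 17815 tested passed the test described with the relatives, 7.94% higher and 10.9% lower in the mutant.

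The start sites of the 7 genes were read for sequence they might share. RefSeq (GRCm38.p6) windows of 300 bases, 250 before and 50 after the start site, were found for 7 of 7 genes, 8 windows in all since Tenm4 has 2. Motifs were searched on both strands. For GATA factors they were AGATAA or the same with its last base G (AGATAG), also with its first base T in both forms. The others were TGGGAA for the Notch partner RBPJ, CACGTG as a single form of the E-box and TGTGGT for RUNX factors. Other forms of the E-box were not searched. Of all 32851 windows 29.8% held a GATA match, 25.6% an RBPJ match, 7.15% a CACGTG match and 16.8% a RUNX match. Each of the 4 motifs occurred in 1 of the 8 windows, each time in a different gene, and the windows of B4galnt2, Fam20a and Pcdh7 and the second window of Tenm4 held none of these letters. The 4 windows with a match are given here, 5′ to 3′ on the strand of the gene, with the match in capitals. They are the CACGTG letters of Rhobtb3 (chr13:75943775-75944074, minus strand) and the RUNX letters of Arnt2 in reverse (chr7:84409989-84410288, minus strand). The others are the RBPJ letters of Tenm4 (chr7:96170994-96171293, plus strand) and the GATA letters of Olfm5 (chr7:104164767-104165066, minus strand).
Rhobtb3: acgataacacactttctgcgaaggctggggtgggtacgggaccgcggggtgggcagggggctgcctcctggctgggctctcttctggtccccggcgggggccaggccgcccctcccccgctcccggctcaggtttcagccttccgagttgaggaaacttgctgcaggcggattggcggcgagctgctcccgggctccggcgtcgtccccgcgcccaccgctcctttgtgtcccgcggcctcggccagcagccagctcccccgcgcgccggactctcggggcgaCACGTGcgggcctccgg
Arnt2: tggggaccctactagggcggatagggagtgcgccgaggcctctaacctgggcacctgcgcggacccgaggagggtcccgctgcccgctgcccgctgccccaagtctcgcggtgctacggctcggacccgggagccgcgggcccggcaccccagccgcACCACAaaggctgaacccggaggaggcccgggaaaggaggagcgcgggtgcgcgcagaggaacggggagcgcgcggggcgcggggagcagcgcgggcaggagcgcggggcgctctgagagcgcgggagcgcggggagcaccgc
Tenm4: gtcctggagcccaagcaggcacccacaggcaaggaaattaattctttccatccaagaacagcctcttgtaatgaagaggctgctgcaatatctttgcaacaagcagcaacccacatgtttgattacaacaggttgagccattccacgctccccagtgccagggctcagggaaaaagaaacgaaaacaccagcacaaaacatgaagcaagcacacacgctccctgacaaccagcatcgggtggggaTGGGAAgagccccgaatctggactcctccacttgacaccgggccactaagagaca
Olfm5: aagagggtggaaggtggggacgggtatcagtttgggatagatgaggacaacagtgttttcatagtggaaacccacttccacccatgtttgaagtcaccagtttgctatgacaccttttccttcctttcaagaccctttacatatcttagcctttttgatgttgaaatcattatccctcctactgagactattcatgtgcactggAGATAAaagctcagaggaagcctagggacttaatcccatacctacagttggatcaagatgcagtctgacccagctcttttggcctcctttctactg

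These windows also run from one end of base composition to the other. Arnt2 has 40 CpG pairs and Rhobtb3 33 in 300 bases, more than 96.1% and 91.4% of all windows, and B4galnt2 has 21. Olfm5 has 1, and 5.43% of windows have fewer, against a median of 7. Fam20a has 13, Pcdh7 11 and the windows of Tenm4 6 and 12. Neither a motif among those searched nor a CpG class was common to the 7.

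Rhobtb3 (ENSMUSG00000021589.13, chr13:75869537-75943925, minus strand) showed the widest gap of the 7. It had 771, 1126 and 814 normalised reads in the mutant libraries, against 8.48, 0.955 and 12.5 in the wild-type libraries. The wild-type values stand for 8, 1 and 14 reads. Even the lowest mutant library was 61.9-fold above the highest wild-type library. Means were 904 ± 194 in the mutant and 7.30 ± 5.84 in the wild type (SD, n = 3 each). Their ratio was 124 (86.3 without wild type replicate 2, 192 without wild type replicate 3). The counting interval of that ratio at 95% was 82.6 to 196. It rests on 2713 mutant and 23 wild-type reads and covers counting error only. By level per exon length, 40.8% of listed protein-coding genes lay below it in the mutant and 3.86% in the wild type.

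Arnt2 (ENSMUSG00000015709.9, chr7:84246278-84410176, minus strand) was nearest to silence in the wild type by read number. It had 86.5, 147 and 97.1 normalised reads in the mutant libraries, against 6.36, 0 and 0 in the wild-type libraries. Wild-type reads were thus seen in replicate 1, and the other wild-type libraries held 0 reads. The mean was 110.1 ± 32.1 in the mutant and 2.12 ± 3.67 in the wild type (SD, n = 3 each), a ratio of 51.9. Without wild type replicate 1 the mutant was at least 79.7-fold higher, taking 3 reads over the remaining wild-type libraries as the floor. Without wild type replicate 2 or 3 the ratio was 34.6. In the mutant Arnt2 stayed a low transcript, with 14.3 normalised reads per kb of exon on average, a level above that of 19.5% of listed protein-coding genes.

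Tenm4 (ENSMUSG00000048078.16, chr7:96171246-96911093, plus strand) had 190, 40.7 and 131 normalised reads in the mutant libraries, against 10.6, 2.86 and 2.67 in the wild-type libraries. Mutant replicate 2 was 3.84-fold above the highest wild-type library, the narrowest gap among the 7 genes. The mean was 120.7 ± 75.2 in the mutant and 5.38 ± 4.53 in the wild type (SD, n = 3 each), a ratio of 22.4 that became 43.6 without wild type replicate 1. Tenm4 is also the longest of the 7, with 739.8 kb of gene and 21021 bp of exon. Per kb of exon it had 5.74 normalised reads in the mutant and 0.256 in the wild type, the lowest of the 7 in each genotype.

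B4galnt2 (ENSMUSG00000013418.8, chr11:95865943-95914891, minus strand) was the most evenly read of the 7 in the wild type. It had 1236, 752 and 864 normalised reads in the mutant libraries, against 40.3, 35.3 and 30.3 in the wild-type libraries. The lowest mutant library was 18.6-fold above the highest wild-type one (means 950.4 ± 253 and 35.3 ± 5.02, SD, n = 3 each, ratio 26.9). At 552 normalised reads per kb of exon in the mutant, above 67.2% of listed protein-coding genes, it reached the highest level of the 7, against 20.5 per kb in the wild type. Fam20a (ENSMUSG00000020614.13, chr11:109669749-109722279, minus strand) had 787, 379 and 578 normalised reads in the mutant libraries, against 45.6, 45.8 and 21.4 in the wild-type libraries (means 581.6 ± 204 and 37.6 ± 14.1, SD, n = 3 each, ratio 15.5). The genotypes did not overlap, and mutant replicate 2 was the lowest of its group.

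Pcdh7 (ENSMUSG00000029108.14, chr5:57717967-58133230, plus strand) had 352, 256 and 191 normalised reads in the mutant libraries, against 26.5, 34.4 and 11.6 in the wild-type libraries (means 266.5 ± 81.3 and 24.2 ± 11.6, SD, n = 3 each, ratio 11.04). Olfm5 (ENSMUSG00000044265.16, chr7:104153013-104164831, minus strand) had 484, 454 and 277 normalised reads in the mutant libraries, against 53.0, 19.1 and 41.8 in the wild-type libraries (means 405 ± 112 and 37.98 ± 17.3, ratio 10.7). The lowest mutant library was 5.55-fold above the highest wild-type one for Pcdh7 and 5.22-fold for Olfm5. Per kb of exon Olfm5 stood at 179 normalised reads in the mutant and 16.7 in the wild type, and Pcdh7 at 25.1 in the mutant and 2.28 in the wild type.

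**Figure D1:**
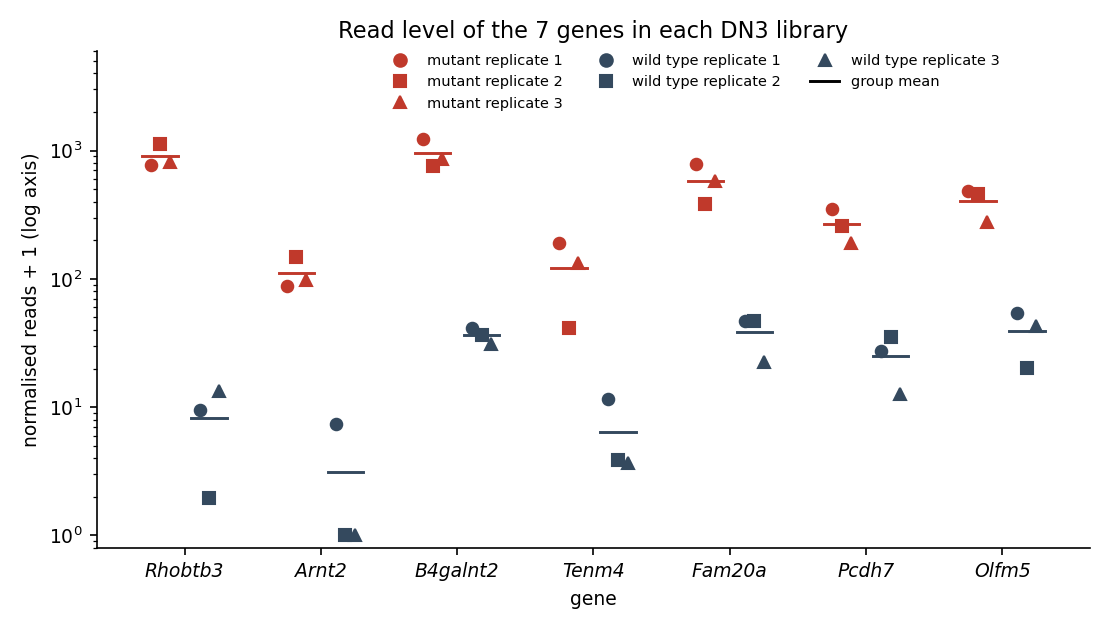
Normalised reads plus 1 of the 7 genes in each of the 6 libraries, on a log axis, with mutant libraries in red to the left of wild-type libraries in blue, a symbol for each replicate number and bars at the group means. The genotypes do not overlap for any of the 7, and the symbols of Arnt2 in wild type replicates 2 and 3 lie at 0 reads.

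The name near-silent therefore fitted some of the 7 better than others. The wild-type mean was under 10 normalised reads in 3 of them, Rhobtb3, Arnt2 and Tenm4, and lay between 24.2 and 37.98 in the other 4. Per kb of exon, 0.322% of listed protein-coding genes lay below Tenm4 in the wild type, 0.366% below Arnt2 and 7.003% below Pcdh7. For Fam20a the share was 17.8%, for Olfm5 20.9% and for B4galnt2 22.4%. Listed genes have at least 20 reads over the 6 libraries together, so genes silent in both genotypes are missing from these shares. Tenm4 and Arnt2, with 16 and 6 wild-type reads, are listed through their mutant reads. On the log2(value + 1) scale of the fit the changes, mutant minus wild type, were 7.15 ± 0.61 for Rhobtb3, 5.798 ± 0.78 for Arnt2, 4.69 ± 0.24 for B4galnt2 and 4.22 ± 0.67 for Tenm4 (± SE, n = 3 each). They were 3.93 ± 0.36 for Fam20a, 3.49 ± 0.41 for Pcdh7 and 3.46 ± 0.38 for Olfm5. Named genes were ranked by this change if their mean over all libraries reached 50 and their genotypes did not overlap. They also had to pass the test described with the relatives, with the mutant higher. Olfm5 was number 12, and Lmcd1, at 3.38, came next and was not taken. Of the first 12, 5 (Btnl2, Ifi211, Ifi204, H2-Q1 and Smok4a) were not taken either. In 7 of 7 genes the libraries of the genotypes did not overlap, against 18% of all tested genes that did so with the mutant higher and 20.3% with the mutant lower; the choice of the genes used these values, and nothing follows from the count.

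**Figure D2:**
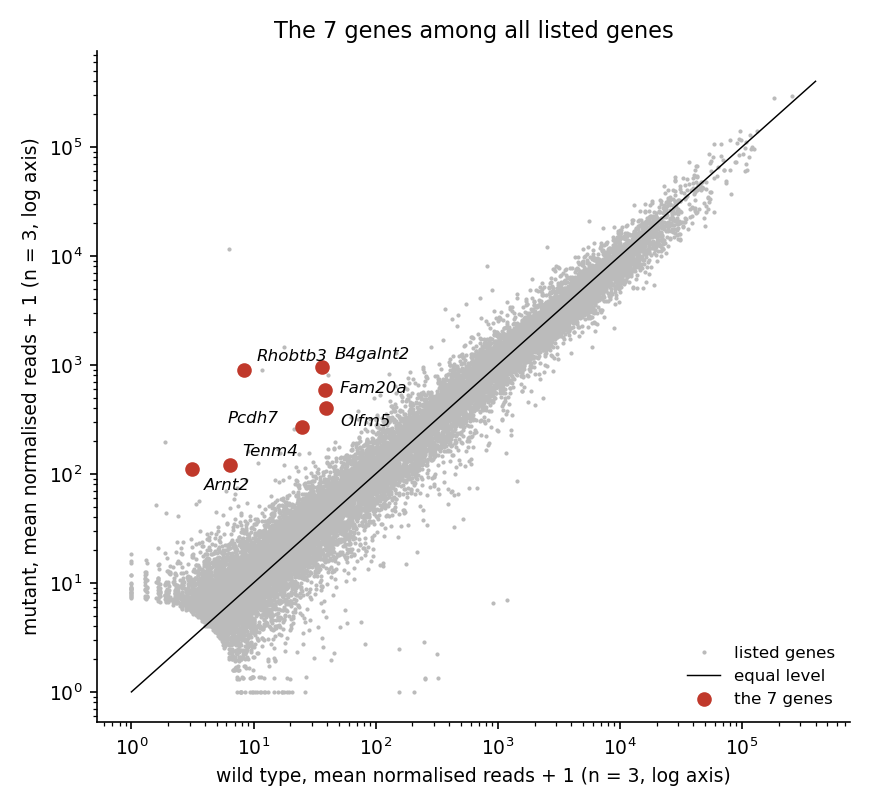
Mean normalised reads plus 1 of every listed gene in the mutant (vertical) and the wild type (horizontal), on log axes, with the line of equal level and the 7 genes in red. The 7 lie between 110.1 and 950.4 on the mutant axis and between 2.12 and 37.98 on the wild-type axis before 1 is added, apart from the band of most genes.

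Levels within the mutant were uneven. The coefficient of variation over the 3 mutant libraries was 21.4% for Rhobtb3, 26.7% for B4galnt2, 27.6% for Olfm5, 29.2% for Arnt2, 30.5% for Pcdh7, 35.1% for Fam20a and 62.3% for Tenm4. For tested genes whose mutant mean lay within 2-fold of each of these, the median was 11.9% to 22.5%, lower than the value of the gene in each case. The 7 did not share an order of libraries. Mutant replicate 1 was the highest mutant library for 5 genes and replicate 2 for 2 (Rhobtb3 and Arnt2), while replicate 2 was the lowest for B4galnt2, Tenm4 and Fam20a, replicate 3 for Pcdh7 and Olfm5 and replicate 1 for Rhobtb3 and Arnt2.

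**Figure D3:**
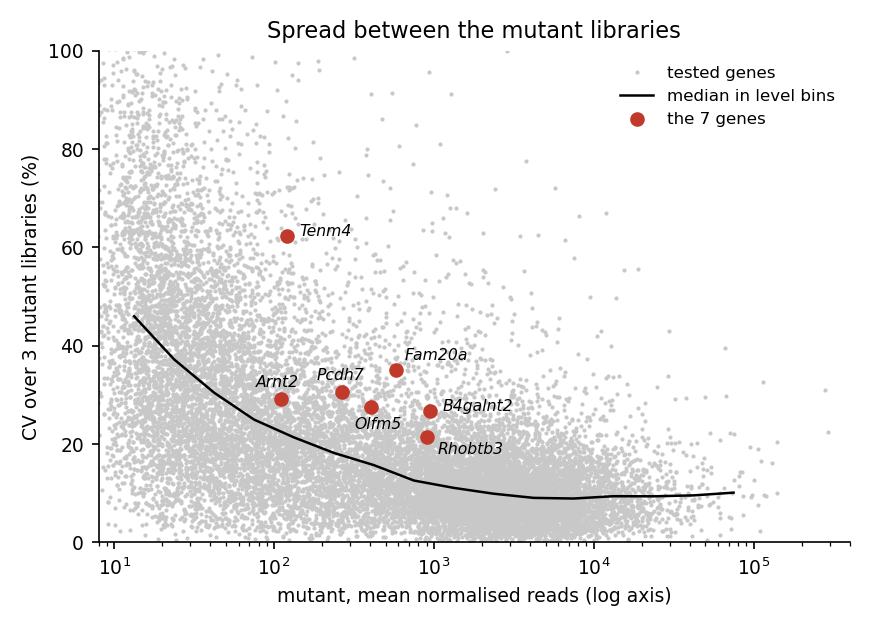
Coefficient of variation over the 3 mutant libraries (%, axis ending at 100) against the mean normalised reads in the mutant (log axis) for tested genes, with the median in bins of level as a line and the 7 genes in red. Each of the 7 lies above the line, Tenm4 at 62.3% by the widest margin.

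No tested close relative of the 7 genes passed the test. Of 31 relatives 14 were listed and tested, and in the limma fit across all genes 0 were called higher and 0 lower at a Benjamini-Hochberg adjusted p under 0.05, against 7.94% and 10.9% of all genes tested. At an unadjusted p under 0.05 there were 2 of these 14, edgeR's quasi-likelihood test called 0 and DESeq2 called 1, Arntl2. The median log2 change of the 14 was 0.01, against 0.03 over all genes.

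For most of the 7, DN3 cells of each genotype held a relative at a far higher level per exon length than the gene itself had in the wild type. Rhobtb2, with 133 normalised reads per kb in the mutant and 148 in the wild type, stood near the level that Rhobtb3 had in the mutant (156). Its sister Rhobtb1 had 3.59 per kb in the mutant and 4.13 in the wild type. Arnt, the general partner of the hypoxia and dioxin receptors, had 290 per kb in the mutant and 265 in the wild type, next to Arnt2 at 14.3 per kb in the mutant. Arntl, the clock protein BMAL1, had 151 per kb in the mutant and 153 in the wild type. B4galnt1, which makes the gangliosides GM2 and GD2, had 1269 per kb in the mutant and 1155 in the wild type. Tenm1 had 261 per kb in the mutant and 215 in the wild type, and the xylose kinase gene Fam20b had 294 in the mutant and 284 in the wild type.

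The log2 changes of these abundant relatives were -0.16 ± 0.15 for Rhobtb2, 0.13 ± 0.11 for Arnt, -0.02 ± 0.12 for Arntl, 0.14 ± 0.10 for B4galnt1, 0.28 ± 0.14 for Tenm1 and 0.05 ± 0.12 for Fam20b (± SE). Their limma adjusted p ran from 0.198 (Tenm1) to 0.936 (Arntl). The kinase gene that FAM20A acts on, Fam20c, was itself rare, with 28.5, 9.96 and 24.3 normalised reads in the mutant libraries and 48.8, 28.6 and 8.90 in the wild-type libraries. Among the protocadherins Pcdh8 (4.41 per kb in the mutant, 2.81 in the wild type) and Pcdh17 (0.762 in the mutant, 0.842 in the wild type) were listed of 8 relatives, both below Pcdh7 in the mutant. Of 10 olfactomedin relatives Olfml3 had 123, 93.3 and 122 normalised reads in the mutant, against 62.6, 51.6 and 84.5 in the wild type, without overlap but short of the threshold (log2 change 0.78 ± 0.29, limma adjusted p = 0.0845). Olfm2 lay the other way (35.9, 33.5 and 24.3 in the mutant, 57.3, 47.7 and 38.3 in the wild type, adjusted p = 0.267 in limma).

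Arntl2, the rare sister of Arntl, was the least settled of the relatives. It had 5.28, 3.62 and 0 normalised reads in the mutant libraries, against 43.5, 1.91 and 105 in the wild-type libraries, where replicate 2 was as low as the mutant. Its log2 change was -2.96 ± 1.26 (limma adjusted p = 0.131). Without wild type replicate 2 limma called it lower (-4.48, adjusted p = 0.017), as DESeq2 did with all libraries (-4.07, adjusted p = 0.00113).

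**Figure D4:**
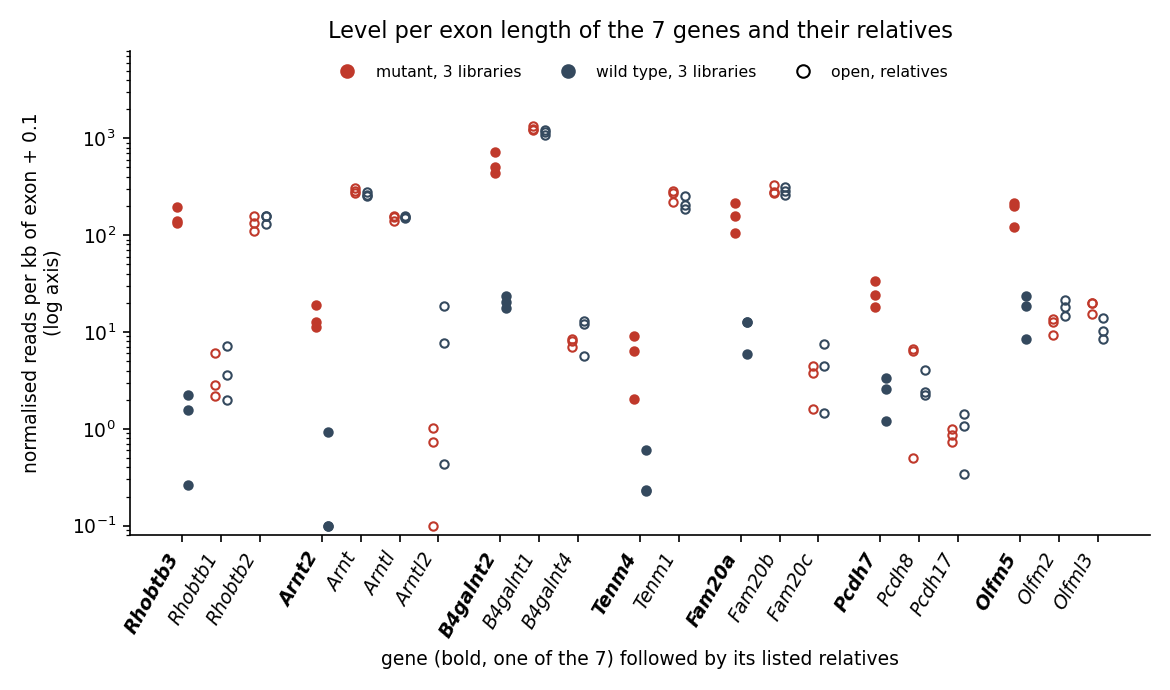
Normalised reads per kb of exon plus 0.1 (log axis) of each of the 7 genes (bold, filled) and its listed relatives (open), with the 3 mutant libraries in red to the left of the 3 wild-type libraries in blue. The 7 separate by genotype, while Rhobtb2, Arnt, Arntl, B4galnt1, Tenm1 and Fam20b stand above 100 per kb in both genotypes.

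Genes whose products bind or work with 6 of the 7, or are linked to them by family or pathway, were read next. For Fam20a they were relatives of secretory kinases and enzymes of glycosaminoglycan chains, and no binding to FAM20A is implied. Of 45 such genes, here called partners, 35 were tested. By limma 3 rose (8.57%) and 2 fell (5.71%), near or below the 7.94% higher and 10.9% lower of all genes. The median log2 change of the 35 was 0.06. The partner of the PAS proteins that rose was Ahr, the dioxin receptor, with 5686, 7319 and 6650 normalised reads in the mutant libraries, against 3489, 3069 and 3065 in the wild-type libraries (log2 change 1.03 ± 0.12, limma adjusted p = 0.000509). No mutant library overlapped a wild-type one. Hif1a had 4498, 5967 and 5848 in the mutant and 5468, 4949 and 7055 in the wild type, which overlap, and Epas1 had at most 24.3 in any library. Of the trafficking and oxygen-sensing partners of Rhobtb3, which include Cul3, Rab9, Vhl and Egln1, 10 of 10 were tested and 0 were called by limma, edgeR or DESeq2, and 0 had an unadjusted limma p under 0.05.

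For the glycosylation and secretory genes, Xylt1, which starts glycosaminoglycan chains, had 2046, 2532 and 2124 normalised reads in the mutant libraries, against 1005, 1206 and 1284 in the wild-type libraries (0.94 ± 0.14, limma adjusted p = 0.00162). Fam198a, a relative of the secretory kinases, had 437, 275 and 288 in the mutant and 134, 219 and 108 in the wild type (1.15 ± 0.29, adjusted p = 0.0218, and above 0.05 without mutant replicate 1 or wild type replicate 1 or 3, up to 0.0762). St3gal6, an enzyme that makes sialylated galactose of the kind B4GALNT2 acts on, had 121, 91.4 and 93.8 in the mutant, against 265, 200 and 163 in the wild type (-1.01 ± 0.25, limma adjusted p = 0.0206). That call was lost without mutant replicate 2 or wild type replicate 1 or 2 (adjusted p up to 0.0781). Set, which encodes a phosphatase inhibitor bound by PCDH7 in human cells, had 15806, 16191 and 15140 in the mutant and 28154, 28339 and 31960 in the wild type (-0.91 ± 0.09, limma adjusted p = 0.000234). Of 6 genes for latrophilins, the receptors of teneurins, and the FLRT proteins that bind them, 4 were tested and limma called 0. Flrt1 was the 1 with an unadjusted limma p under 0.05 and the 1 called by DESeq2, while edgeR gave values for 2 of them and called 0.

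Genes that hypoxia factors act on were taken because ARNT2 can pair with HIF1A. Of 12 tested, Ndrg1 rose, and Pdk1 and P4ha1 fell (limma adjusted p under 0.05), with a median log2 change of 0.14. These shares, 8.33% higher and 16.7% lower, rest on 3 genes and stand beside 7.94% and 10.9% of all genes. Ndrg1, a stress-response gene, had 12899, 11613 and 9593 normalised reads in the mutant, against 7771, 7022 and 6463 in the wild type (0.68 ± 0.12, adjusted p = 0.0051). Pdk1, the pyruvate dehydrogenase kinase, had 4522, 6237 and 4859 in the mutant, against 9556, 8744 and 9009 in the wild type (-0.82 ± 0.13, adjusted p = 0.00199). P4ha1 of collagen prolyl hydroxylation changed by -0.42 ± 0.12 (adjusted p = 0.0371), which no longer passed in 5 of the 6 fits that each drop a library (all but that without mutant replicate 1), nor with equal library totals. The growth factor gene Vegfa (0.50 ± 0.16) stood at the threshold, with an adjusted p of 0.0504 in limma and 0.0438 in edgeR.

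By position, 3 of the 7 lie on chromosome 7, where 7.84% of listed protein-coding genes are, and 2 on chromosome 11 (8.47%). From Arnt2 to Olfm5 chromosome 7 spans 19.9 Mb, and of the 145 tested genes between them 10.3% were higher and 11.03% lower in the mutant, near the shares of the table. From B4galnt2 to Fam20a, 13.9 Mb of chromosome 11, 6.18% of 259 were higher and 12.0% lower. These intervals were chosen after the values were seen.

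The 3 nearest protein-coding genes on each side of each gene, at any distance, came to 42, of which 27 were listed and 26 tested. Those of Pcdh7 lie 3597 to 4681 kb away, and those on the lower side of Tenm4 3089 to 3297 kb away. Limma called 6 of them higher (23.1%, against 7.94% of all genes) and 1 lower (3.85%, against 10.9%). The number called higher was between 3 and 10 under the alternatives, lowest without wild type replicate 2, so the size of this share is loosely set. The neighbours of B4galnt2 held 2 of the 6. Gngt2, 20.2 kb away, had 2450, 1795 and 1709 normalised reads in the mutant libraries, against 1004, 982 and 901 in the wild-type libraries (1.03 ± 0.15, adjusted p = 0.00171). Abi3 next to it had 4737, 3641 and 3242 in the mutant, against 2244, 2442 and 2076 in the wild type (0.77 ± 0.15, adjusted p = 0.00582). These 2 genes overlap each other in the annotation, and the libraries carry no strand, so their reads cannot be fully told apart.

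Ubqlnl, 2.46 kb from Olfm5, was close to it in fold but rare, with 13.7, 33.5 and 25.4 normalised reads in the mutant, against 0, 0 and 6.23 in the wild type (log2 change 3.62 ± 0.91, limma adjusted p = 0.0214). The call was lost without mutant replicate 3 or wild type replicate 1 or 2 (adjusted p up to 0.0689). Usp35, 398.3 kb from Tenm4, had 91.8, 86.0 and 103 in the mutant, against 37.1, 37.2 and 3.56 in the wild type (2.33 ± 0.72, adjusted p = 0.0477). Its change was 1.30 without wild type replicate 3, and its adjusted p was 0.0558 with edgeR and up to 0.112 when a mutant library was left out. Zfand6 near Arnt2 (0.32 ± 0.10, limma adjusted p = 0.04996) passed by the smallest margin and lost the call when any library other than mutant replicate 3 was left out. Arap2, 4469 kb from Pcdh7, rose by 0.68 ± 0.16 on the log2 scale (adjusted p = 0.0145, and 0.0554 without wild type replicate 2). The neighbour that fell was Glrx, 19.4 kb from Rhobtb3 (-0.48 ± 0.14, adjusted p = 0.0348, and up to 0.119 on leaving out a library).

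Some near genes were not called by limma. Prkar1a, whose annotated end lies 93 bp from that of Fam20a, had 29899, 29418 and 26434 normalised reads in the mutant, against 26391, 28131 and 28297 in the wild type (0.05 ± 0.09, limma adjusted p = 0.739). Ell2 near Rhobtb3 had a log2 change of 0.22 ± 0.25 (limma adjusted p = 0.589). Rfesd near Rhobtb3 (0.38 ± 0.13, limma adjusted p = 0.0725) and Nars2 near Tenm4 (-0.41 ± 0.16, limma adjusted p = 0.101) were called by DESeq2, with adjusted p of 0.0376 for Rfesd and 0.0487 for Nars2. Rfesd was also called with equal library totals (adjusted p = 0.0385), and Nars2 without wild type replicate 1 (adjusted p = 0.0496).

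**Figure D5:**
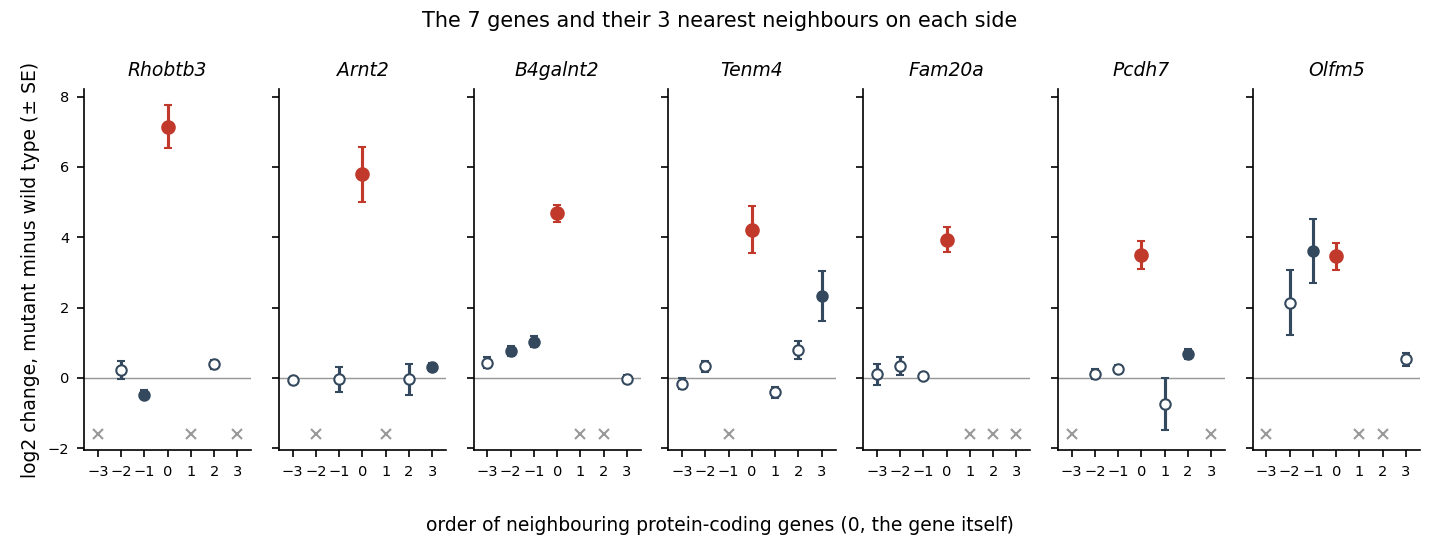
Log2 change, mutant minus wild type, of each of the 7 genes (red) and its 3 nearest protein-coding neighbours on each side (blue, filled where the limma adjusted p was under 0.05), with SE as bars; crosses at the bottom mark neighbours that were not listed or not tested. Of the 26 tested neighbours 18 lie above 0, with a median log2 change of 0.28, against 0.03 over all genes. Ubqlnl beside Olfm5 is the one at the level of its neighbour.

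Some transcripts are annotated across the 7 genes on the other strand. Gm11534, an antisense RNA that shares 263 bp of exon with B4galnt2, had 26.4, 22.6 and 15.4 normalised reads in the mutant, against 3.18, 3.82 and 4.45 in the wild type (2.20 ± 0.57, limma adjusted p = 0.0235). Gm30873, antisense to Arnt2 with 214 bp shared, had 17.9, 2.72 and 3.31 in the mutant, against 0 in each wild-type library. C230038L03Rik across Tenm4, with 988 bp shared, had 49.6, 48.9 and 71.7 in the mutant and 47.7, 14.3 and 24.0 in the wild type (adjusted p = 0.124 in limma). The widest share of exon was that of 4932441J04Rik with Pcdh7, at 2235 bp. It had 2.11, 6.34 and 17.7 in the mutant and 6.36, 0 and 0 in the wild type, which overlap. Gm8319, within Tenm4 with 0 bp of exon shared, had 117, 94.2 and 89.4 in the mutant, against 141, 147 and 166 in the wild type (adjusted p = 0.0983 in limma). Where exons are shared, reads of these transcripts and of the genes they cross cannot be told apart without strand.

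The genes whose levels ran most nearly parallel to each of the 7 over the 6 libraries were Gorab for Rhobtb3, Plekhf2 for Arnt2, Pkp4 for B4galnt2, Ccnl1 for Tenm4, Mir142hg for Fam20a, Insl6 for Pcdh7 and Fam131a for Olfm5. Pearson's r on log2(value + 1) was between 0.995 and 1.00 for these, the top of 10839 genes for each, and the 6 points share the genotype split. The second genes were Trbv12-1, Slc38a9, Batf, Scaper, Blk, Tcrg-V1 and Herc6 in the same order. Of these 14 the largest change was that of Fam131a, at 466 ± 84.7 normalised reads in the mutant and 131 ± 37.5 in the wild type (SD, n = 3 each), a log2 change of 1.85 beside 3.46 for Olfm5.

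Since several of the 7 are known from epithelial, mesenchymal or neural cells, markers of other cells were read in the same libraries. In these bulk samples more cells of a type and more RNA per cell cannot be told apart. Of 7 neural markers 5 were listed, summing to 11159 to 13659 normalised reads in the mutant and 10837 to 11971 in the wild type, mostly Mbp. Limma called 0 of these 5, and Snap25 and Syt1 were not listed. Tubb3 had 1595 to 2459 in the mutant and 1435 to 2076 in the wild type. The neuronal Map2 had 3.62 to 8.83 in the mutant and 11.7 to 22.9 in the wild type. Of 8 thymic epithelial markers 4 were listed (5478 to 8019 in the mutant, 5113 to 5936 in the wild type, mostly Epcam), with Psmb11 at 5.52 to 9.05 in the mutant and 0.89 to 1.91 in the wild type. Of 7 mesenchymal markers 2 were listed, Col1a1 at 7.39 to 9.93 in the mutant and 8.59 to 18.03 in the wild type, and Pdgfrb, which rose to 7237 ± 972 in the mutant, against 2939 ± 210 in the wild type (limma adjusted p = 0.000176). Of 6 endothelial markers 4 were listed (5774 to 6697 in the mutant, 4134 to 5181 in the wild type, mostly Pecam1). Pecam1 rose by 0.41 ± 0.11 on the log2 scale (limma adjusted p = 0.0324). Kdr, too rare to be tested, had 17.9, 19.0 and 9.93 in the mutant, against 0, 1.91 and 8.01 in the wild type, without overlap. Cdh5 had 6.34 to 7.39 in the mutant and 0.89 to 13.4 in the wild type, and Esam 0 to 20.8 in the mutant and 5.73 to 35.0 in the wild type.

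Blood-cell markers were read likewise. The sums of 4 listed myeloid markers of 7 were 1123 to 2037 in the mutant and 1142 to 1612 in the wild type, mostly Lyz2. Those of 3 dendritic markers of 5 were 167 to 181 in the mutant and 90.7 to 127 in the wild type. Those of 3 B-cell markers of 5 were 10562 to 12308 in the mutant and 15456 to 18454 in the wild type, nearly all Ighm. Those of 2 NK and innate markers of 4 were 4.41 to 177 in the mutant and 13.4 to 62.6 in the wild type. Markers of earlier thymocytes (8 of 8 tested) were lower in 3 cases, Cd44, Bcl11a and Mef2c, and DN3 markers (10 of 10) were higher in 6 and lower in 1. Of 6 double-positive markers 2 rose and 1 fell. Over all genes 7.94% were higher and 10.9% lower. The part of any of these cells in the levels of the 7 genes was not tested.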

How the data were processed

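RNA was measured in 6 libraries, 3 mutant and 3 wild type, made with the SMART-Seq v4 and Nextera XT kits, per the labels' protocols. Tools named in the submitters' processing notes are STAR 2.5.3, featureCounts and DESeq2 1.20.0, with the build mm10 (GRCm38); the annotation release and counting options were not stated there. From its values, the deposited signal is whole reads per gene scaled by 1 factor for each library: 100% of 126810 values were whole multiples of the library's step within 0.1 reads, and each listed gene has at least 20 reads. Symbols came from GENCODE release M21 on GRCm38 (21100 of 21135 matched). The test was limma 3.58.1 (R 4.3.3, trend) on log2(value + 1) for genes averaging 10 or more, two-sided, with Benjamini-Hochberg adjustment at 0.05 over all 17815 genes; it was tested on simulated data. Count tests on recovered reads (edgeR 4.0.16, which called 3322 genes, and DESeq2 1.42.0) were alternatives. Fold changes of rare genes on this scale can lie above or below those of the count tests. Rhobtb3 changed by 7.15 here and 6.93 in edgeR, and Tenm4 by 4.22 here and 4.51 in edgeR. Named beside the 7 were Myc, relatives, partners, hypoxia genes and neighbours that passed or set the scale, and the 2 genes most like each; any others were picked with their values in view. The 7 genes and all lists were chosen with earlier results of these data known.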

Additional observations from a re-analysis of the deposited data

How the results depend on the processing

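The log2 changes of the 7 genes were recomputed under 14 alternatives each, 98 values in all. None changed sign and 1 moved by more than the residual SD of its gene, Arnt2 at 4.09 with a pseudocount of 5. The ranges were 6.30 to 7.69 for Rhobtb3, 4.09 to 6.76 for Arnt2, 4.48 to 4.84 for B4galnt2, 3.44 to 4.86 for Tenm4, 3.58 to 4.21 for Fam20a, 3.06 to 3.80 for Pcdh7 and 3.04 to 3.75 for Olfm5. With equal library totals 52.6% of calls over the table were higher in the mutant, against 42.2%, and the split was 1827 higher and 1646 lower, against 1414 and 1938; in that setting 2 hypoxia genes were higher and 1 lower, and 0 neighbours lower. DESeq2 called 1 relative lower, 4 partners lower, 2 hypoxia genes higher, 10 neighbours higher and 2 lower. With edgeR, a pseudocount of 5 or a mean of at least 50, 2 hypoxia genes were higher. With a replicate block 1 hypoxia gene was lower, P4ha1 having lost its call, and 7 neighbours were higher; numbers did not pair libraries, since deviations of same-numbered libraries correlated at -0.02, -0.07 and -0.01. Leaving out 1 library gave 0 to 1 relatives lower, 1 to 2 partners lower, 1 to 2 hypoxia genes higher and 1 to 2 lower, 3 to 5 neighbours higher and 0 to 1 lower. Over the table it gave 817 to 1182 higher and 1079 to 1784 lower, the lowest of both without wild type replicate 2; 860 were higher without mutant replicate 2. With the block 1339 were higher and 1727 lower. Fewer libraries were tested there. Genes with a mean near 10 rest on few reads, so that fold ratios of Arnt2, Tenm4 and Rhobtb3 are the least exact.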

Other observations

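A step between under 10 and at least 50 normalised reads was seen in 16 genes of 3570 with a wild-type mean under 10 (0.448%). Rhobtb3, Arnt2 and Tenm4 are 3 of these 16. The reverse step was seen in 17 of 3197 genes with a mutant mean under 10 (0.532%). Both totals count listed genes only, so genes silent in both genotypes are missing from them. The genotypes did not overlap in 12 of these 16 genes and in 6 of these 17, against 18% (higher) and 20.3% (lower in the mutant) of all genes tested, shares that the choice by level affects. Of the 17, 8 are haemoglobin or immunoglobulin genes that were high in a single wild-type library. All of the genes that follow were named after their values were seen. Other genes of the first kind were Dsp, a desmosome gene, at 52.7 ± 9.38 in the mutant and 7.88 ± 8.55 in the wild type (SD, n = 3 each), the tight-junction gene Cldn2 at 64.7 ± 27.5 in the mutant and 6.09 ± 7.06 in the wild type, and the T-cell receptor delta segment Trdv4 at 73.6 ± 27.7 in the mutant and 6.27 ± 3.95 in the wild type. Of the second kind were Ctsf, a cathepsin gene, at 1.77 ± 2.33 in the mutant and 81.0 ± 3.56 in the wild type, and the synapsin gene Syn2 at 1.46 ± 1.69 in the mutant and 152.9 ± 40.2 in the wild type. The haemoglobin genes were high in wild type replicate 2 and the immunoglobulin genes in wild type replicate 1, where Igkc had 759 normalised reads, against 0 in the other wild-type libraries.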
